A study of Rattus norvegicus with 18 samples.

Results

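The genes described here encode 10 mucins and proteins that goblet cells of the colon secrete: Muc2, Muc1, Muc4, Muc13, Tff3, Spink4, Zg16, Fcgbp, Retnlb and Clca1. They were chosen by name, and their values are those of every probe set that the array annotation assigns to 1 of these symbols alone. That gave 10 probe sets for 9 of the 10 members, among 14217 genes with such a probe set. No probe set was named for Retnlb, so it has no value. A probe set named jointly for Fcgbp and another gene was left out. All 9 measured members passed the filter on low signal, as did 11407 genes in all.

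Expression was measured on 18 Affymetrix rat arrays, 9 of distal and 9 of proximal colon. Both regions were sampled in each of 9 male Sprague Dawley rats, which carry the numbers 1 to 8 and 10. The rats had been allocated at random to a pair of groups, and since the labels do not give each rat's group, differences between rats may include differences between those groups. Before sampling, all were fed modified AIN-93G for 10 days. Azoxymethane, a colon carcinogen that alkylates DNA, was then injected subcutaneously (15 mg per kg), and the rats were killed after 6 h. Rats without azoxymethane were not analysed here, so the comparison is of distal with proximal colon after the injection. Each sample was a scraping of 4 cm of mucosa and held several cell types, so fewer cells of a type and less RNA per cell cannot be told apart.

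Goblet cells fill their apex with granules of MUC2, a very large glycoprotein that unfolds on release into the net-like gel of colonic mucus. FCGBP and CLCA1 are abundant partners of MUC2 in that gel, and CLCA1 is a metalloprotease that can cleave it. TFF3 is a small trefoil peptide that supports repair of the epithelial surface, ZG16 is a lectin that binds and aggregates Gram-positive bacteria, and RETNLB is a resistin-like protein directed against bacteria. MUC1, MUC4 and MUC13 are not gel-forming: they span the apical membrane of epithelial cells and contribute to the glycocalyx.

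Windows around the annotated gene start were available from RefSeq (build GRCr8) for 9 of the 10 members, 10 windows in all, each with 250 bases before and 50 bases after the start. The windows of Muc2, Spink4 and Tff3 are shown because these genes differed between the regions in different directions. Spink4 has a pair of annotated starts. The windows were chr1:206228785-206229084 on the plus strand for Muc2, chr5:60839669-60839968 and chr5:60848810-60849109 on the plus strand for Spink4, and chr20:9199284-9199583 on the minus strand for Tff3. They are written 5′ to 3′ along the gene, and capitals mark each GATAA, the core motif of GATA factors, on either strand.
Muc2: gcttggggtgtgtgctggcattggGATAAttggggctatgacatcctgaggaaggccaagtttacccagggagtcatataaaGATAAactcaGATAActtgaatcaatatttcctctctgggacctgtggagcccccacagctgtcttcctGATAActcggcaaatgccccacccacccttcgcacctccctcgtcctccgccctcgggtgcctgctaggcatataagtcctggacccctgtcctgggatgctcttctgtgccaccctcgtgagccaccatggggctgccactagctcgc
Spink4, upstream start: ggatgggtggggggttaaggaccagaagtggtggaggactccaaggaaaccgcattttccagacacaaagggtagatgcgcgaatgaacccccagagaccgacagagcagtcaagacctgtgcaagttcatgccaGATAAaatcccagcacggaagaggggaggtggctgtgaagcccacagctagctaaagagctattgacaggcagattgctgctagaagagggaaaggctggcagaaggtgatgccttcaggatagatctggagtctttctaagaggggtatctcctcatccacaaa
Spink4, downstream start: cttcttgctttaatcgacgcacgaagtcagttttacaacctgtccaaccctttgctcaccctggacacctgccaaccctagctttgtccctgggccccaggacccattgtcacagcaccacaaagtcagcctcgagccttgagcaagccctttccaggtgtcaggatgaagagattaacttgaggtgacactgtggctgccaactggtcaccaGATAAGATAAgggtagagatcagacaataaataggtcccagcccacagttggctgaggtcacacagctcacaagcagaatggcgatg
Tff3: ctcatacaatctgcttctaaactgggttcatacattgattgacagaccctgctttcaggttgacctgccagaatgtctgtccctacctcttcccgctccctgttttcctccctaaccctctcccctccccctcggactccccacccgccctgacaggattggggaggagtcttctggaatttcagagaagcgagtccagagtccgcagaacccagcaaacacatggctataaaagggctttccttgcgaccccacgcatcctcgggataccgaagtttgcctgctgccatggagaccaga

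GATAA was found 4 times in the Muc2 window, 226, 168, 158 and 99 bases before the start. It was found once in the upstream and 2 times in the downstream window of Spink4, and the window of Tff3 held no match. Among all 33469 windows of the same length, 26.5% held this motif. TTTAT, the core of Cdx motifs, overlapped with a GATAA in Muc2 and in the upstream Spink4 window and with TATAAA in Muc2 and Tff3. It was present in all 4 windows shown, and occurred in 42.5% of all windows. TATAAA began 23 bases before the start in Tff3 and 174 bases before it in Muc2, and was in 14.2% of all windows. The other motifs searched on both strands were TATATAA (3.93% of all windows), CACCC (54.9%), CANNTG (72.1%), TGTTTAC (3.78%) and GGGCGG (33.1%). These matches describe letters in the windows and were not tested against the expression values.

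The members did not differ between the regions as a block. Spink4 was 7.13-fold and Zg16 3.65-fold higher in proximal colon, and Muc2 was 1.15-fold higher there. Tff3 was 1.33-fold higher in distal colon. Muc1, Muc4, Muc13, Fcgbp and Clca1 did not pass the test. Thus 4 of 9 members were called, against 30.8% of all genes tested. Of the members, 1 was higher in distal colon, against 16.2% of all genes, and 3 were higher in proximal colon, against 14.5% of all genes. The median difference was -0.01 over the 9 members and 0.01 over all genes, as distal minus proximal on the log2 scale. Signals are log2(signal + 16) after quantile normalization, each test is that of limma over 21729 probe sets, and a call is a Benjamini-Hochberg adjusted p below 0.05. The folds come from these log2 values and understate changes of genes with low signal.

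**Figure D1:**
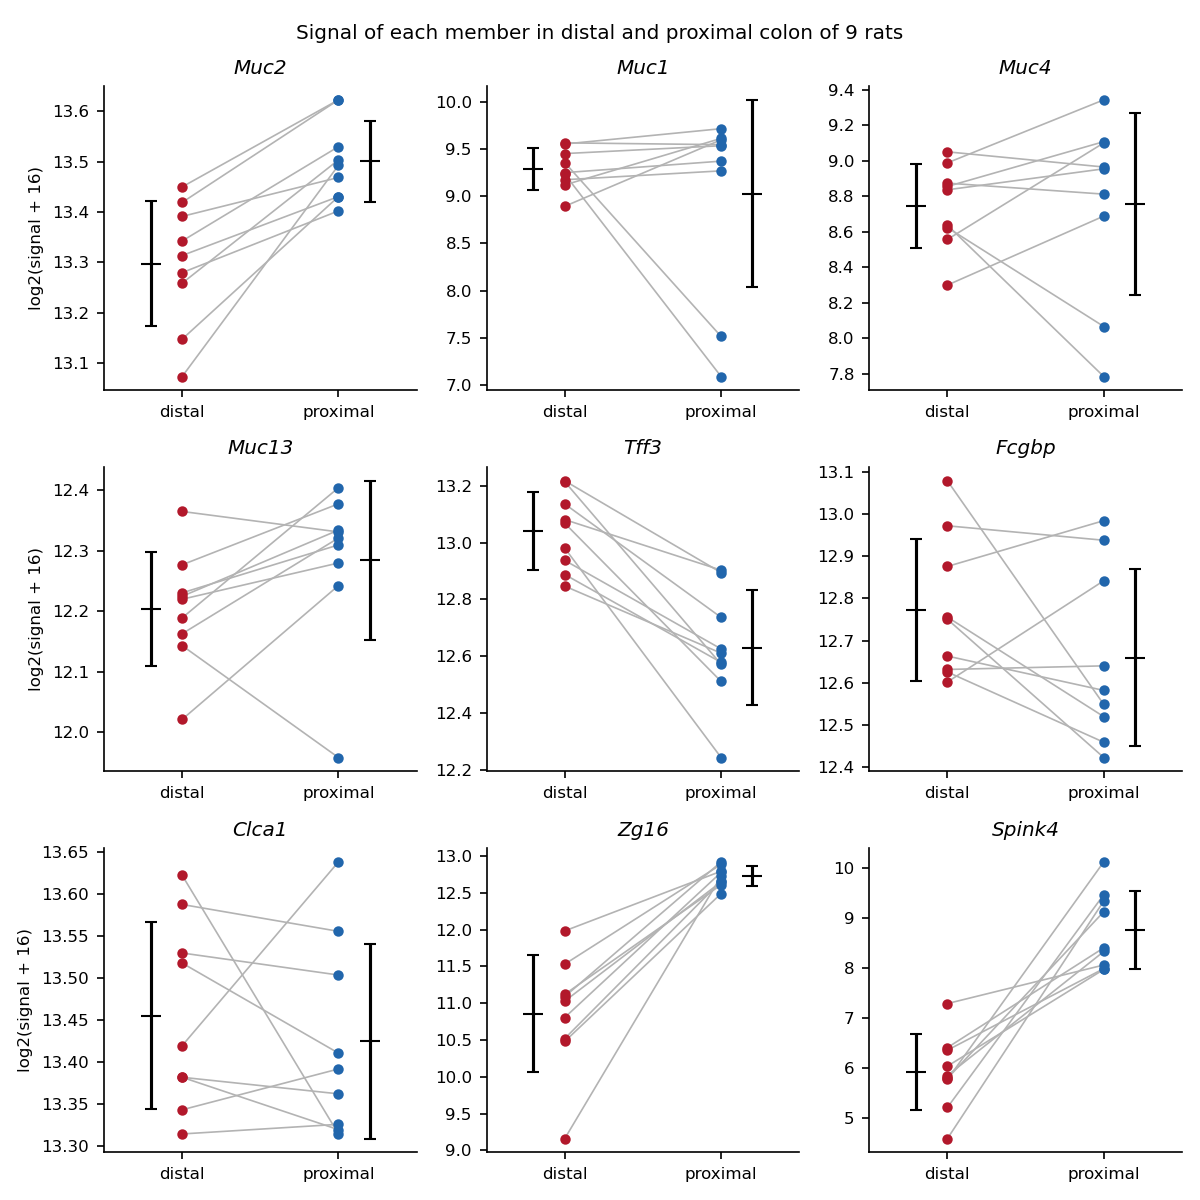
Signal of the 9 measured members on the log2(signal + 16) scale after quantile normalization (vertical axes, each with its own range) in distal colon (red, left) and proximal colon (blue, right). Each point is 1 array, grey lines join the arrays of a rat, and bars give the mean ± SD (n = 9 each). Zg16 and Spink4 are lower in all 9 distal arrays than in any proximal array, while proximal Muc1 and Muc4 have their lowest values in rats 3 and 6.

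Muc2, the gel-forming mucin of the colon, had a lowest, median and highest log2 signal of 13.07, 13.31 and 13.45 in distal colon, against 13.40, 13.49 and 13.62 in proximal colon. The regions overlapped only narrowly, and every rat was lower in its distal array. The means were 13.30 ± 0.12 in distal and 13.50 ± 0.08 in proximal colon (SD, n = 9 each). The difference was -0.20 ± 0.05 (SE; limma adjusted p = 0.00369; 95% interval -0.30 to -0.10), and it ranged from -0.42 to -0.08 over the rats. With arrays centred on their medians in place of quantile normalization the difference was -0.20 with an adjusted p of 0.109. Deposited signals of Muc2 ran from 7727 to 11856 in distal and from 10467 to 13631 in proximal colon, which is 51.1% to 65.0% and 61.8% to 72.7% of the highest signal on the same array. Whether signals are compressed at the top of the scale was not tested.

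Fcgbp, the mucus protein with von Willebrand-type domains, had log2 signals of 12.60, 12.75 and 13.08 (lowest, median, highest) in distal and 12.42, 12.58 and 12.98 in proximal colon. The ranges overlapped, with the proximal median below the lowest distal value. The difference was 0.11 ± 0.08 (SE; limma adjusted p = 0.346; 95% interval -0.06 to 0.29, higher in distal colon in 6 of 9 rats). Clca1, the mucus metalloprotease, had 13.31, 13.42 and 13.62 in distal and 13.31, 13.39 and 13.64 in proximal colon. Its difference was 0.03 ± 0.05 (adjusted p = 0.707; 95% interval -0.08 to 0.14). The second Clca1 probe set gave 0.04 ± 0.10 (adjusted p = 0.799). A region difference in either direction was therefore not detectable for Fcgbp and Clca1, and their signs turned with the deposited scaling (-0.04 and -0.12).

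Tff3, the trefoil peptide, had log2 signals of 12.85, 13.07 and 13.22 in distal and 12.24, 12.61 and 12.90 in proximal colon. It was the only member called as higher in distal colon. The means were 13.04 ± 0.14 in distal and 12.63 ± 0.20 in proximal colon (SD, n = 9 each), with a difference of 0.41 ± 0.08 (SE; limma adjusted p = 0.000431). The difference was positive in 9 of 9 rats, from 0.18 to 0.74, although single arrays overlapped between the regions. With the scaling of the deposited signals kept, it was 0.26 (adjusted p = 0.119), so the call rests on scaling between arrays. On the deposited scale the median difference over all genes was -0.10, and after quantile normalization it was 0.01. On the deposited scale 2000 genes were called, 22.5% of them higher in distal colon, against 3510 genes and 52.8% after quantile normalization.

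Zg16, the bacteria-binding lectin, had deposited signals of 588, 1931 and 4361 (lowest, median, highest) in distal colon, against 6005, 6862 and 9550 in proximal colon. All distal arrays lay below all proximal arrays. Of all genes tested, 6.89% had no overlap between the regions, and among the members these were Zg16 and Spink4. On the log2 scale the means were 10.86 ± 0.79 in distal and 12.72 ± 0.14 in proximal colon (SD, n = 9 each), with a difference of -1.87 ± 0.24 (SE; limma adjusted p = 9.00e-06). The spread was thus far wider in distal colon. Rat 1 had the highest distal value (11.98) and rat 7 the lowest (9.16), and the within-rat differences ran from -3.57 to -0.81. The distal array of rat 7 also had a smooth muscle score, the mean log2 signal of 10 contractile genes, of 9.69, and that of rat 3 had 9.74. The other distal arrays had 6.37 to 7.62. Without these and the proximal array of rat 3 the Zg16 difference was -1.61 (adjusted p = 8.41e-07).

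Spink4, a Kazal-type inhibitor-like peptide of goblet cells, had deposited signals of 9.15, 36.2 and 119 in distal colon, against 211, 372 and 984 in proximal colon. The highest distal array, that of rat 6, lay below the lowest proximal array, that of rat 5. The log2 means were 5.93 ± 0.76 in distal and 8.76 ± 0.78 in proximal colon (SD, n = 9 each), with a difference of -2.83 ± 0.33 (SE; limma adjusted p = 2.50e-06). This fit did not pair the regions by rat. With rat as a block the SE was larger, at 0.38 (limma adjusted p = 0.000159). All 9 rats were lower in distal colon, by log2 differences between -4.75 and -0.77. In 2 distal arrays the signal was below the level of the filter (5.54), where the size of the fold depends on the pseudocount. The difference was -3.29 with a pseudocount of 1 and -2.12 with one of 64.

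**Figure D2:**
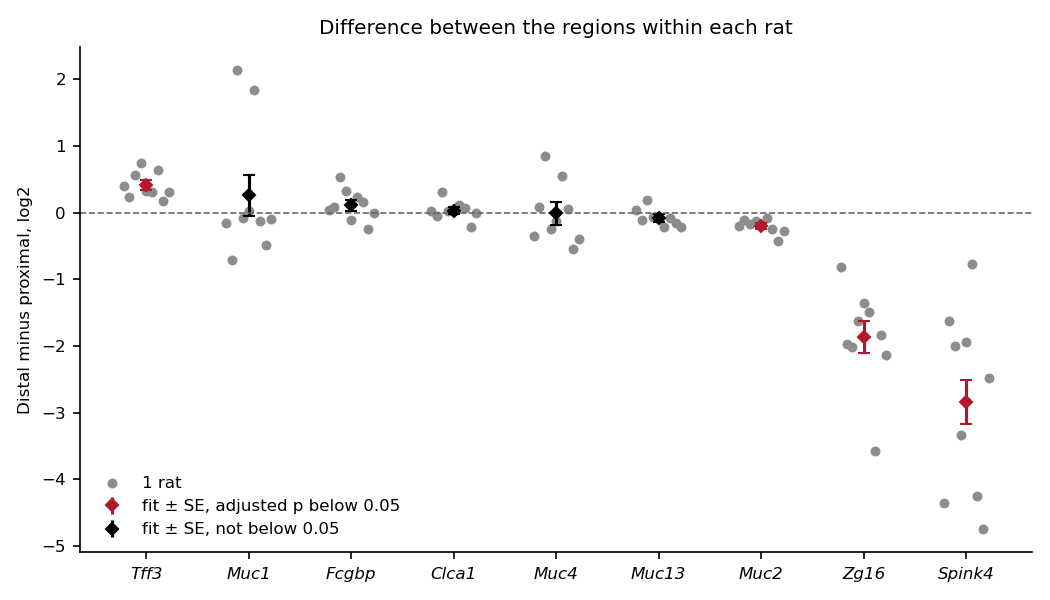
Distal minus proximal log2 signal of each measured member (vertical axis) in each of 9 rats (grey points), with the limma estimate ± SE (diamonds, red where the adjusted p was below 0.05, black otherwise). Tff3 lies above 0 and Muc2, Zg16 and Spink4 lie below 0 in all 9 rats, and Spink4 spans -4.75 to -0.77.

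A ratio of signals within an array is hardly touched by scaling between arrays, so each other member was set against Muc2 in the same array. These ratios were added after the values had been seen, and 8 were tested by an exact two-sided permutation that turns the signs of the within-rat differences (512 patterns, smallest possible p 0.00391), with adjustment over the 8. Tff3 relative to Muc2 had a mean log2 ratio of -0.27 ± 0.19 in distal and -0.87 ± 0.19 in proximal colon (SD, n = 9 each), a difference of 0.60 in 9 of 9 rats (exact adjusted p = 0.00625). Fcgbp relative to Muc2 differed by 0.30, and Clca1 relative to Muc2 by 0.23, both with a higher distal ratio in 9 of 9 rats (exact adjusted p = 0.00625). Zg16 and Spink4 relative to Muc2 were lower in distal colon by log2 differences of -1.65 and -2.62, also in 9 of 9 rats (exact adjusted p = 0.00625). Muc1, Muc4 and Muc13 relative to Muc2 differed by 0.48, 0.23 and 0.12 and did not pass (exact adjusted p = 0.172, 0.125 and 0.134). With 1 rat left out at a time, the Muc1 ratio passed only without rat 2 (0.64, exact adjusted p = 0.0208). With rats 3 and 6 left out, all 8 ratios kept their direction and call, so the Muc1 ratio did not pass. Signals of Muc2, Tff3, Fcgbp, Clca1 and Zg16 therefore did not keep 1 proportion along the colon. Compression of signals near the top of the scale, where Muc2 and Clca1 lie, was not tested, and a ratio within an array does not remove it. Such ratios show unequal change of signal and do not show which of the paired genes changed. All 8 share Muc2, so they are not independent of each other. On the deposited scale the difference was -0.34 for Muc2, -0.04 for Fcgbp and -0.12 for Clca1.

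**Figure D3:**
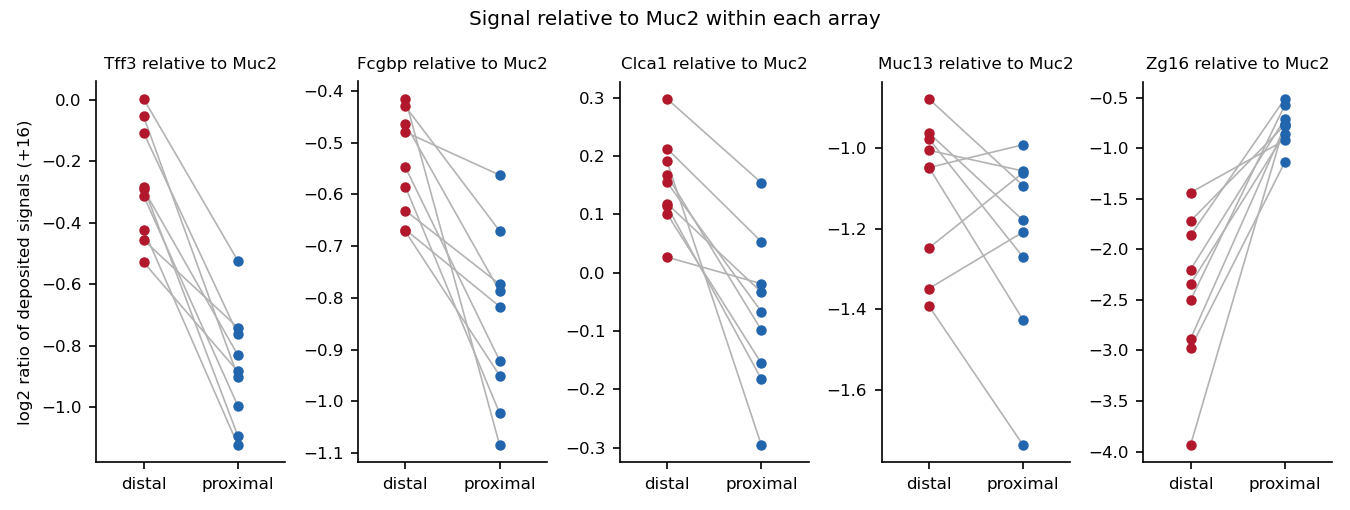
Log2 ratio of the deposited signal (with 16 added) of Tff3, Fcgbp, Clca1, Muc13 and Zg16 to that of Muc2 on the same array (vertical axes, each with its own range), in distal colon (red, left) and proximal colon (blue, right). Grey lines join the arrays of a rat. The ratios of Tff3, Fcgbp and Clca1 are higher and that of Zg16 is lower in the distal array of all 9 rats.

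Among the membrane-spanning mucins, Muc1 had log2 signals of 8.89, 9.25 and 9.56 (lowest, median, highest) in distal and 7.09, 9.53 and 9.71 in proximal colon. Its mean difference was 0.26 ± 0.31 (SE; limma adjusted p = 0.577), yet 6 of 9 rats were lower in distal colon. The proximal arrays of rats 3 and 6 stood apart, at 7.09 and 7.52, while the remaining ones lay between 9.27 and 9.71. Without both the difference turned to -0.23 (adjusted p = 0.0780). Muc4 showed the same arrays at its low end. It had 8.30, 8.84 and 9.05 in distal and 7.78, 8.95 and 9.34 in proximal colon, and the proximal values were 7.78 for rat 3, 8.07 for rat 6 and 8.69 to 9.34 elsewhere. Its difference was -0.01 ± 0.17 (adjusted p = 0.972), and -0.25 without those arrays (adjusted p = 0.106).

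Deviations of Muc1 and Muc4 from their region means correlated with a Pearson r of 0.87 over the 18 arrays, and of 0.40 over the 16 arrays left without the proximal arrays of rats 3 and 6. The value over all arrays thus rests mainly on this pair. Smooth muscle was high in the first of them and not in the second. Its score was 12.10 in proximal colon of rat 3 and 6.60 to 8.51 in that of the other rats, rat 6 included. Muc13, a membrane mucin of the intestinal epithelium, had 12.02, 12.22 and 12.36 in distal and 11.96, 12.32 and 12.40 in proximal colon. Its difference was -0.08 ± 0.05 (SE; limma adjusted p = 0.291), lower in distal colon in 7 of 9 rats, and it passed narrowly without rat 3 (-0.11, adjusted p = 0.0498).

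**Figure D4:**
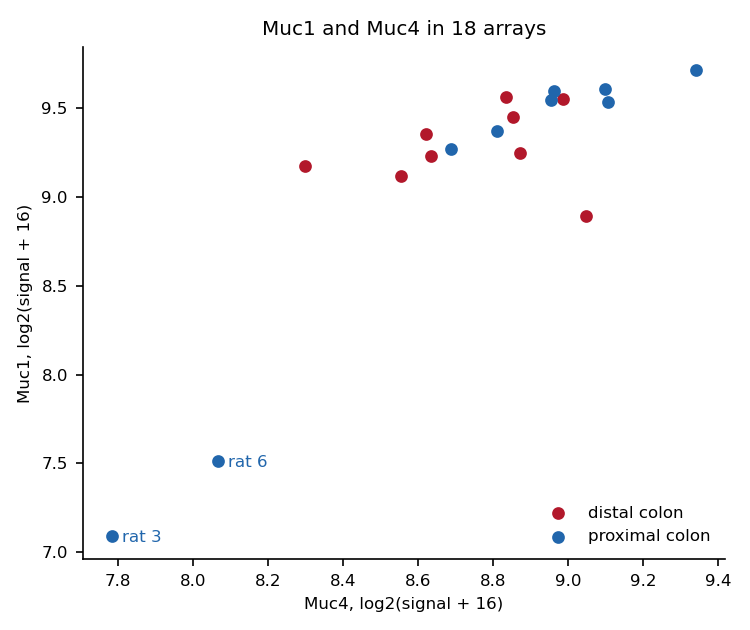
Log2(signal + 16) of Muc4 (horizontal axis) and Muc1 (vertical axis) after quantile normalization in the 9 distal (red) and 9 proximal (blue) arrays. The proximal arrays of rats 3 and 6, which are labelled, lie below all others in both genes.

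Members were also compared with each other within regions. Of the 36 pairs of members, 34 had a positive Pearson r of deviations from the region means over 18 arrays, and 8 had an r above 0.5 (median 0.34). The arrays share animals and a common scaling, so these values are descriptions. Pairs of other genes were not counted, so whether members varied together more than other genes was not tested. The proximal array of rat 3, with the lowest Muc1, Muc4 and Muc13 signals, is part of every r. Muc4 with Muc13 (0.63) and Muc1 with Muc13 (0.50) were not recomputed without that array. Apart from Muc1 with Muc4, the closest pair was Fcgbp with Clca1 (r = 0.83), followed by Tff3 with Fcgbp (0.66) and Tff3 with Clca1 (0.63). Muc2 went with Fcgbp (0.63) and Spink4 (0.55), and hardly with Zg16 (0.20) or Tff3 (0.18). Zg16 and Spink4, the members with the largest region differences, had an r of only 0.17 with each other.

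Whether a rat with a high level in one region also had a high level in the other was asked for each of the 9 members over the 9 rats. With exact permutation of pairings (two-sided) and adjustment over 9 relations, 0 passed with Pearson's r or with Spearman's rho. At an unadjusted exact p below 0.05 there were 0 with Pearson's r and 1 with Spearman's rho. That was Spink4, with r = -0.64 (exact p = 0.0593, adjusted p = 0.507) and rho = -0.73 (exact p = 0.0311, adjusted p = 0.280), and r = -0.76 without rats 1 and 7, the farthest from its proximal median. Distal Spink4 signals were low, at 9.15 to 119 as deposited, with 2 arrays below the filter level (5.54 on the log2 scale). How far noise at low signal sets the order of the rats there was not tested. Muc2 had r = 0.56 (exact p = 0.115, adjusted p = 0.507) and rho = 0.57 (exact p = 0.114, adjusted p = 0.383), but r = 0.04 without rats 1 and 3. For Muc1, whose proximal values fall into separate clusters, r was 0.22 without rats 3 and 6.

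The genes whose deviations from the region means were most like those of Muc2, among 11288 genes over 18 arrays, were Galr2, a galanin receptor (r = 0.81), Atf6, a sensor of stress in the endoplasmic reticulum (0.81), Myrip, which links granules to motor proteins (0.79), Tmem42 (0.79) and Slc37a1, a sugar phosphate transporter (0.78). For Spink4 they were Nfyc (0.77), Yipf5 (0.76), Cnot2 (0.76), Baiap2 (0.74) and Ssr1 (0.74). These are the highest of many values and carry no test.

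Genes that act with the members were taken from lists of further mucins, mucus proteins, goblet cell maturation and mucin glycosylation. Of 14 further mucins, 2 were tested and 0 passed in limma. Muc3, a membrane mucin, differed by -0.03 ± 0.06 (SE; limma adjusted p = 0.797), and Muc5b, a gel-forming mucin, by -0.07 ± 0.21 (adjusted p = 0.829).

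Of 23 tested genes of the mucus layer, 6 were called toward distal and 7 toward proximal colon (median difference -0.09, against 0.01 over all genes). The shares over all genes were 16.2% toward distal and 14.5% toward proximal colon. Higher in distal colon were Sval1 (7.51-fold), Tgm3, a transglutaminase that crosslinks proteins of the mucus (6.53-fold), Best2, an anion channel of colonic goblet cells (2.92-fold), and Retnla, a resistin-like relative of Retnlb (1.89-fold). Without the proximal arrays of rats 3 and 6 the log2 differences of Sval1 and Tgm3 were 1.78 and 1.98, in place of 2.91 and 2.71. Higher in proximal colon were Dmbt1, a scavenger glycoprotein (log2 difference -3.81), Slc12a8 (2.05-fold), Nlrp6, an inflammasome sensor (1.96-fold), and Clca4, a relative of Clca1 (1.70-fold). Clca4 did not pass without rat 2, 5 or 8 (adjusted p = 0.0543 to 0.0747) or without the 3 arrays of highest smooth muscle score (0.0610). The mucus genes with the highest signal, Lypd8 and Pigr, differed by 0.05 (adjusted p = 0.174) and 0.03 (adjusted p = 0.60), with signs that turned under the deposited scaling (-0.11 and -0.10).

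Of 21 tested genes of goblet cell maturation, 4 were called toward distal and 5 toward proximal colon (median -0.03). The shares over all genes were 16.2% and 14.5%. Foxa2, a forkhead factor of secretory epithelium, was 2.65-fold higher in distal colon, Dll1, a Notch ligand of secretory precursors, 1.91-fold, Kdelr3, a retrieval receptor of the secretory pathway, 1.42-fold, and Elf3, an epithelial Ets factor, 1.21-fold. The mean log2 signal of Dll1 in proximal colon was 5.88, near the filter level (5.54), so its fold depends on the pseudocount. Its log2 difference was 0.93, against 1.22 with a pseudocount of 1 and 0.57 with one of 64. The log2 difference of Kdelr3 was 0.33 without the proximal pair from rats 3 and 6, against 0.51 with it. On the deposited scale Kdelr3 and Elf3 were not called (adjusted p = 0.117 and 0.507). Elf3 was also lost with median centring (0.0903) and without the 3 arrays of highest smooth muscle score (0.0539). The homeobox factors of the intestine, Cdx2 (1.55-fold) and Cdx1 (1.43-fold), Pdia3, which forms disulfide bonds (1.49-fold), and Tmed3, a cargo receptor (1.26-fold), were higher in proximal colon. With the probe sets of a gene averaged, the log2 difference of Pdia3 was -0.33 in place of -0.57. Tmed3 was lost with arrays centred on their medians (adjusted p = 0.0823) and without rat 8 (0.0531). Agr2, a disulfide isomerase needed to make Muc2, and Klf4, a factor of goblet cell differentiation, differed by -0.11 (adjusted p = 0.131) and 0.05 (adjusted p = 0.733). Spdef, a master factor of goblet cells, was named after its value was seen: it differed by 0.04 ± 0.08 (SE; adjusted p = 0.756).

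Of 19 tested genes of mucin glycosylation, 4 were called toward distal and 8 toward proximal colon (median -0.03). The shares over all genes were 16.2% and 14.5%. B3gnt7, which extends glycan chains, was 7.79-fold higher in distal colon and Chst5, a sulfotransferase, 7.63-fold. St6galnac6, a sialyltransferase, was 1.53-fold higher there, and Fut2, a fucosyltransferase, 1.36-fold. The log2 difference of B3gnt7 was 2.36 without the proximal arrays of rats 3 and 6, against 2.96 with them. On the deposited scale Fut2 was not called (adjusted p = 0.132). Higher in proximal colon were the sialyltransferases St3gal1 (5.33-fold), St6galnac2 (1.69-fold) and St3gal4 (1.68-fold) and Gcnt3, which branches mucin glycans (2.02-fold). With the probe sets of a gene averaged, the log2 difference of St3gal1 was -1.98 in place of -2.41. That of B3gnt7 was then 3.15 in place of 2.96. St6galnac2 was lost without rat 1, 3, 5, 7 or 8 (adjusted p = 0.0516 to 0.0709) without the proximal pair from rats 3 and 6 (0.0979) and without the 3 arrays of highest smooth muscle score (0.0909). C1galt1, which makes the common core of mucin glycans, differed by -0.03 (adjusted p = 0.840).

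**Figure D5:**
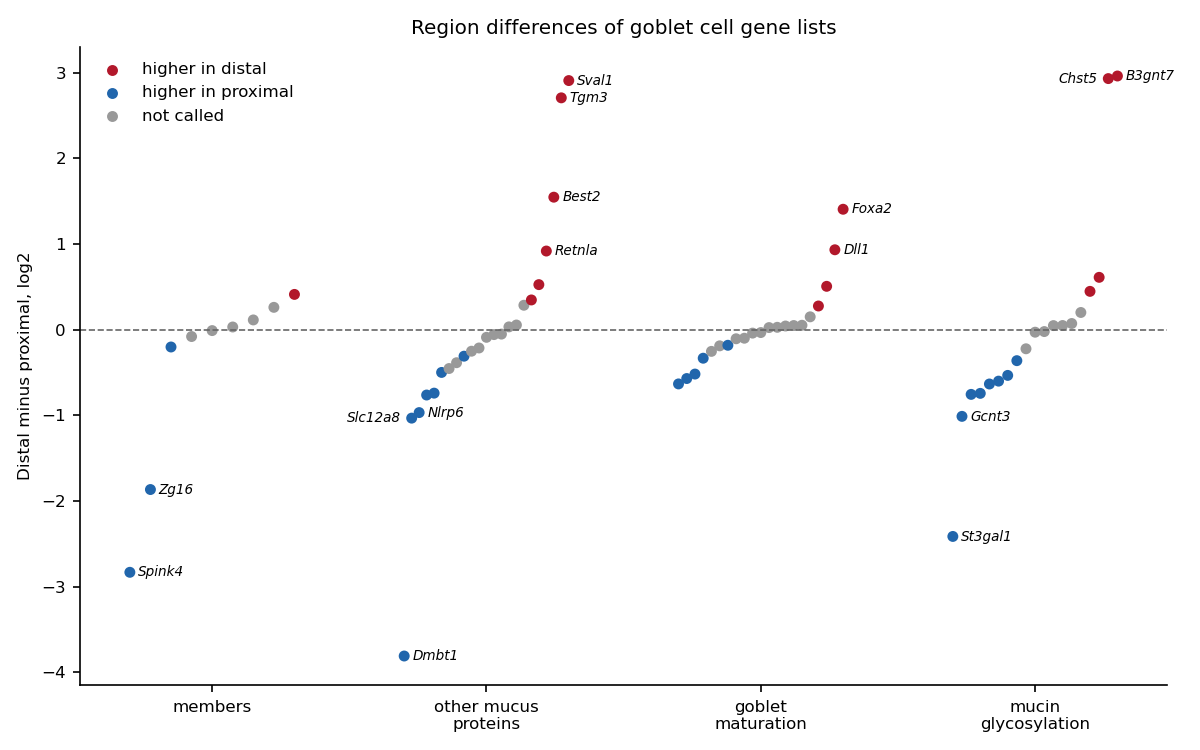
Distal minus proximal log2 difference (vertical axis) of the 9 measured members and of the tested genes of 3 lists, each gene 1 point, ordered by size within its list. Red points are higher in distal and blue points higher in proximal colon at an adjusted p below 0.05, and grey points did not pass. Each list holds genes called in both directions, with Sval1, Tgm3, B3gnt7 and Chst5 at the top and Dmbt1, Spink4 and St3gal1 at the bottom.

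Markers of other cells were read in the same arrays. All 10 epithelial markers were measured, and their mean log2 signal was similar in the arrays, at 12.68 to 12.84 in distal and 12.60 to 12.91 in proximal colon. The lowest value was that of the proximal array of rat 3. Of these markers, 2 were called toward proximal colon, Vil1 (-0.43) and Krt20 (-0.49), and 0 toward distal colon. For 10 of 11 markers of absorptive colonocytes the mean log2 signal was 9.92 to 10.61 in distal and 10.70 to 11.49 in proximal colon. For 8 of 9 enteroendocrine markers it was 6.74 to 7.65 and 7.97 to 8.80. Both scores thus lay on the same side as Zg16, Spink4 and Muc2, with no overlap between the regions. Absorptive markers did not all share this side: 7 were called toward proximal and 2, Ceacam1 and Guca2b, toward distal colon. Of the 8 enteroendocrine markers, 6 were called toward proximal and 0 toward distal colon. Over all genes the shares were 14.5% and 16.2%. For 9 of 12 immune markers the mean log2 signal was 7.26 to 9.17 in distal and 6.77 to 9.42 in proximal colon. The part of these cells in the members' differences was not tested.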

How the data were processed

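The authors deposited linear signal intensities, 1 per probe set and array, and the submitters' processing notes name MAS5. No MAS5 version or scaling target is given in the sources used here. Of 31099 probe sets, 31042 were not controls. Array means after trimming 2% at both ends differed up to 1.62-fold (210.3 to 341.2), so the log2(signal + 16) values were quantile normalized. This gives every array the same distribution and leaves few possible values at the very top, where Muc2 and Clca1 lie. The lowest 30% of probe sets by mean (log2 below 5.54) were left out. Symbols came from the array annotation, which can be old: 20826 probe sets had 1 symbol, 436 several and 9780 none. A gene was represented by its probe set of highest mean.

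Distal minus proximal was fitted with limma 3.58.1 (lmFit, eBayes with trend; R 4.3.3) on 18 arrays without a block, two-sided, with Benjamini-Hochberg adjustment over 21729 probe sets. The script was tested on simulated data. Other values were computed in Python 3.11.15 (numpy 2.4.6, pandas 2.3.3, scipy 1.17.1, matplotlib 3.10.9). Per the labels, a number stands for 1 animal, so the numbers pair the regions. Distal and proximal deviations of the same animal had an r of 0.000945 to 0.569 (median 0.23), against a median of -0.03 between rats. The r was above 0.1 in 6 of 9 rats. In only 4 of 9 did the proximal array have its highest r with the distal array of the same rat. The pairing therefore rests on the labels. The number of arrays limits precision.

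Named were all members, up to 4 called genes of each list with the largest difference in each direction, and the 2 of highest signal. For Muc2 and the member with the largest difference, the 5 genes of highest r were named, with members and provisional symbols passed over. Members, lists and alternatives were chosen with earlier results of these data known. The alternatives were 2 other scalings, 2 other pseudocounts, other filters, the rat as a block, probe set means, no trend, and arrays left out. Columns of no sample numbered 0.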

Additional observations from a re-analysis of the deposited data

Results flagged for a closer look

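Each of the 20 sets of 9 values (10 probe sets in 2 regions) was checked for an array whose gap to its nearest neighbour was large against the whole range. Chance flags about 1 in 20 such sets, and 1 was found. Muc13 in the proximal array of rat 3 had a log2 signal of 11.96, with the nearest proximal array at 12.24 and the highest at 12.40, so that the gap took up 0.638 of the range. The same array had the highest smooth muscle score of all, 12.10, and the lowest Muc1 and Muc4 signals. The part of smooth muscle in these values was not tested.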

How the results depend on the processing

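Over 20 alternatives, Spink4 and Zg16 kept their direction and call in all, with log2 differences of -3.29 to -2.12 and -1.996 to -1.61. Muc2 (-0.34 to -0.18) passed in 19, except with median centring (adjusted p = 0.109), and Tff3 (0.26 to 0.44) in 19, except with the deposited scaling (0.119). Muc13 passed in 1 (without rat 3). With the deposited scaling, 2000 genes were called (450 higher in distal colon) in place of 3510, and 0 members as higher in distal colon in place of 1, and Fcgbp (-0.0404), Clca1 (-0.12), Lypd8 (-0.11), Pigr (-0.10) and Klf4 (-0.10) changed sign. None of these 5 passed in either setting. With median centring Muc4 was at 0.0347. Without the proximal arrays of rats 3 and 6, Muc1 (-0.23), Pigr (-0.00231) and Klf4 (-0.0850) changed sign, and Klf4 (-0.0179) also without the 3 arrays of highest smooth muscle score. Leaving out 1 rat at a time gave sign changes for values near 0, with ranges of -0.12 to 0.0546 for Muc4, -0.00408 to 0.0626 for Clca1, -0.0198 to 0.0775 for Klf4, -0.24 to 0.0135 for Muc5b, -0.11 to 0.0238 for C1galt1 and -0.0626 to 0.0105 for Muc3. Genes past the threshold ran from 3010 to 3650. The correlation between regions turned to -0.31 for Fcgbp without rats 1 and 5. With rat as a replicate block, genes past the threshold numbered 4199, and no call of a named gene changed: Muc2 had an adjusted p of 0.00124, Tff3 of 0.000214, Zg16 of 3.49e-05 and Spink4 of 0.000159. The causes of these changes were not tested. Signals near the filter level limit the Spink4 and Dll1 folds.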
